A study of Mus musculus with 6 samples.

Results

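The response of PA6 cells, a murine bone marrow stromal line, to 3 h of BMP4 was examined on 4 of the 6 arrays of the study, both arrays of cells treated with BMP4 and both arrays of untreated cells. PA6 monolayers were grown to confluence in wells of a plate and then kept for 3 h in serum-free medium with no growth factor (-GFs), with 10 ng/ml of recombinant BMP4 or with 20 ng/ml of recombinant FGF2. The BMP4 dose is that of the sample labels, and the methods on the co-cultures of ES and PA6 cells state a lower one. Every biological replicate supplied 1 well of each kind, so that replicate 1 and replicate 2 each hold a matched pair of a BMP4 culture and a -GFs culture. The groups share the cell line, the medium and the time, and PA6 is a single line grown without the ES cells that it feeds in the co-cultures. The comparison asks which genes the stroma itself modulates early when BMP4 is added.

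A gene was included when its probe had a detection p-value under 0.05, that is, a signal above the negative control beads of the array, on both arrays of -GFs or on both arrays of BMP4. This left 11341 of the 30854 gene names on the array. Values are log2 intensities after cubic spline normalization, and a difference of 1 on this scale is a doubling. A gene was called when it differed by more than 1 on the log2 scale with a Benjamini-Hochberg adjusted p under 0.1 in limma, fitted with the replicate number as a block.

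BMP4 is a secreted ligand of the TGFβ superfamily. It assembles type I and type II receptor kinases at the cell surface, which phosphorylate SMAD1, SMAD5 and SMAD9, and these enter the nucleus with SMAD4 and bind DNA next to other factors. The most constant early targets are the ID genes, which encode helix-loop-helix proteins without a DNA-binding region that sequester the E proteins and so hold back bHLH-driven differentiation. In marrow stroma, BMP signals are known for directing mesenchymal precursors toward bone, cartilage and fat.

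Few genes were modulated by 3 h of BMP4, and the ID family led them. In all, 9 gene names of the array were called higher (0.0794% of those tested) and 1 was called lower (0.00882%). Genes are counted by these names, so that Id2 counts both as ID2 and as IDB2. The genes called higher were ID1, ID2 (also through a probe listed under the older name IDB2), ID3, GSE1, ATOH8, UNC5B, CTGF and IRF5, and the gene called lower was MRGPRF. Without a threshold on the size of the change, 20 genes rose (0.176%) and 7 fell (0.0617%) at an adjusted p under 0.1. All 27 moved the same way in both pairs, which is no separate support, since the fit that selected them used the same pairs. In 25 of them both BMP4 arrays lay on the same side of both -GFs arrays, which was the case for 11.3% (above) and 12.9% (below) of all genes. At an unadjusted p under 0.05 there were 379 higher genes (3.34%) and 450 lower genes (3.97%). Without the replicate block 1 gene was called, ID1, and with neqc background correction in place of the spline 2 were, ID1 and ID2. On the 4 BMP4 and -GFs arrays alone the same 10 were called, but 239 genes had an adjusted p under 0.1. The main fit, which gave the 27, used all 6 arrays with the replicate block.

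The median absolute log2 difference between BMP4 and -GFs was 0.11, below the 0.25 between FGF2 and -GFs and the 0.17 between replicate 2 and replicate 1 in the same model. In all, 10 genes differed by more than 1 log2 between BMP4 and -GFs, and these were the 10 called ones, against 448 between FGF2 and -GFs and 120 between the replicates. The BMP4 array correlated with the -GFs array of its own replicate at r = 0.993 (replicate 1) and r = 0.991 (replicate 2) across probes, and the -GFs arrays correlated with each other at r = 0.974. The largest absolute log2 difference of a gene that was not called was 0.94, that of ID4.

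**Figure D1:**
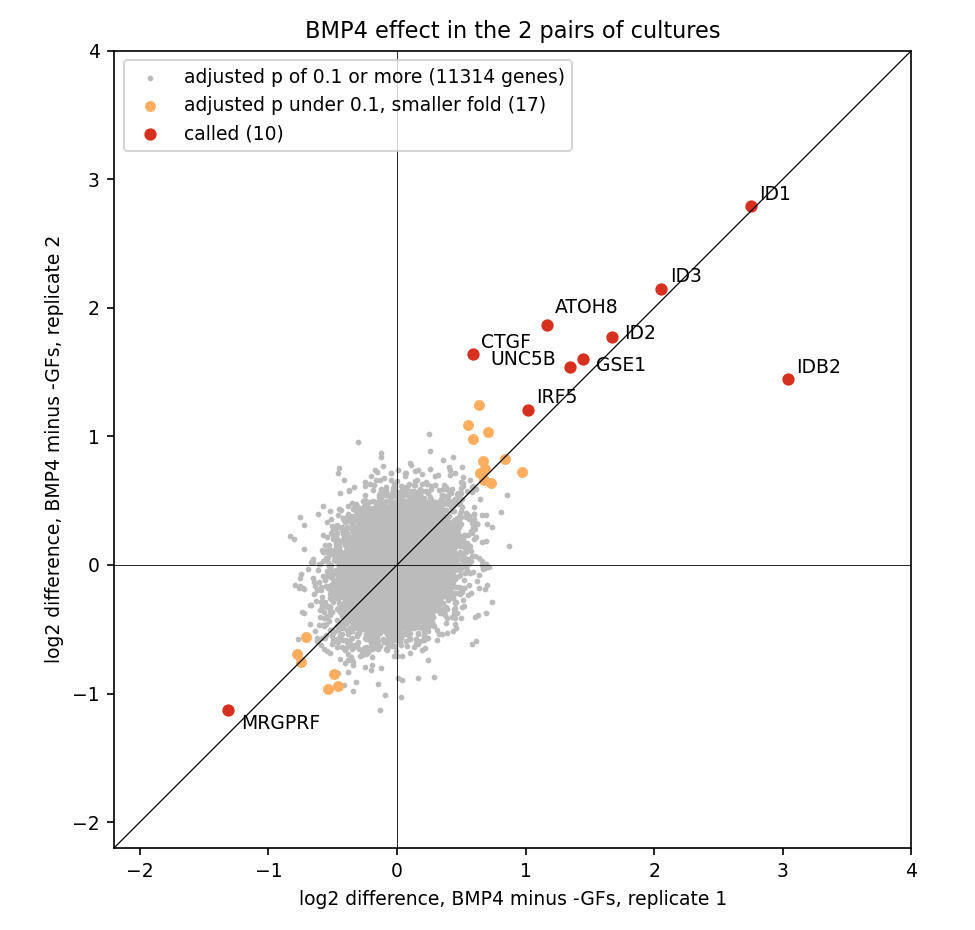
Log2 difference between BMP4 and -GFs in the cultures of replicate 1 (x axis) and of replicate 2 (y axis) for the 11341 genes, each point a gene, with the 10 called genes in red and the other 17 with an adjusted p under 0.1 in orange. Of the called genes, IDB2 lies furthest below the diagonal line of equal difference, with more change in replicate 1, and CTGF and ATOH8 lie furthest above it, with more change in replicate 2.

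ID1, the family member that is used most widely as a readout of BMP signaling, rose most. On the log2 scale it read 9.73 and 9.74 in -GFs medium and 12.49 and 12.54 in presence of BMP4. Both BMP4 values stood far above both -GFs values, and the pairs differed by nearly the same amount. The increase was 2.77 ± 0.15 on the log2 scale (SE of the model, n = 2 per group), a 6.84-fold rise with a 95% interval from 2.47 to 3.08 log2 (limma adjusted p = 2.65e-09).

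ID3 followed. It read 8.04 and 8.63 in -GFs medium and 10.10 and 10.78 in presence of BMP4, and it rose by 2.10 ± 0.15 log2, or 4.30-fold (limma adjusted p = 3.84e-07). Replicate 2 was the higher of the pair in both conditions, while the difference within a pair was 2.06 and 2.15.

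Id2 is measured by 3 probes on the array. The probe named ID2 read 8.19 and 7.95 without BMP4 and 9.86 and 9.72 with it, a rise of 1.72 ± 0.15 log2 or 3.30-fold (limma adjusted p = 2.75e-06). The probe named IDB2, a RefSeq synonym of Id2, read 8.50 and 7.87 against 11.53 and 9.31, and it rose by 2.24 ± 0.30 log2 (limma adjusted p = 0.000816). The direction was shared by both probes, but the IDB2 probe rose by 3.04 in replicate 1 and by 1.44 in replicate 2, so its size was not settled by these arrays. Without the BMP4 array of replicate 1 its increase was 1.30 log2 and without that of replicate 2 it was 3.18 log2, and with the trend and robust options of limma it was no longer called (adjusted p = 0.694). The remaining ID2 probe was dim. It was not well above background on either -GFs array and was detected on both BMP4 arrays, which gives a bound of at least 1.05-fold, the mean of the BMP4 arrays over the lowest signal detected on the -GFs arrays.

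ID4 increased too, by less than the threshold on the fold. It read 8.13 and 8.0 in -GFs and 8.77 and 9.25 with BMP4, that is 0.94 ± 0.16 log2 or 1.92-fold (limma adjusted p = 0.0109). Its probe of the older name, IDB4, differed by 0.34 log2. The complete ID family, 4 genes, was therefore higher on both BMP4 arrays than on both -GFs arrays in each member.

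**Figure D2:**
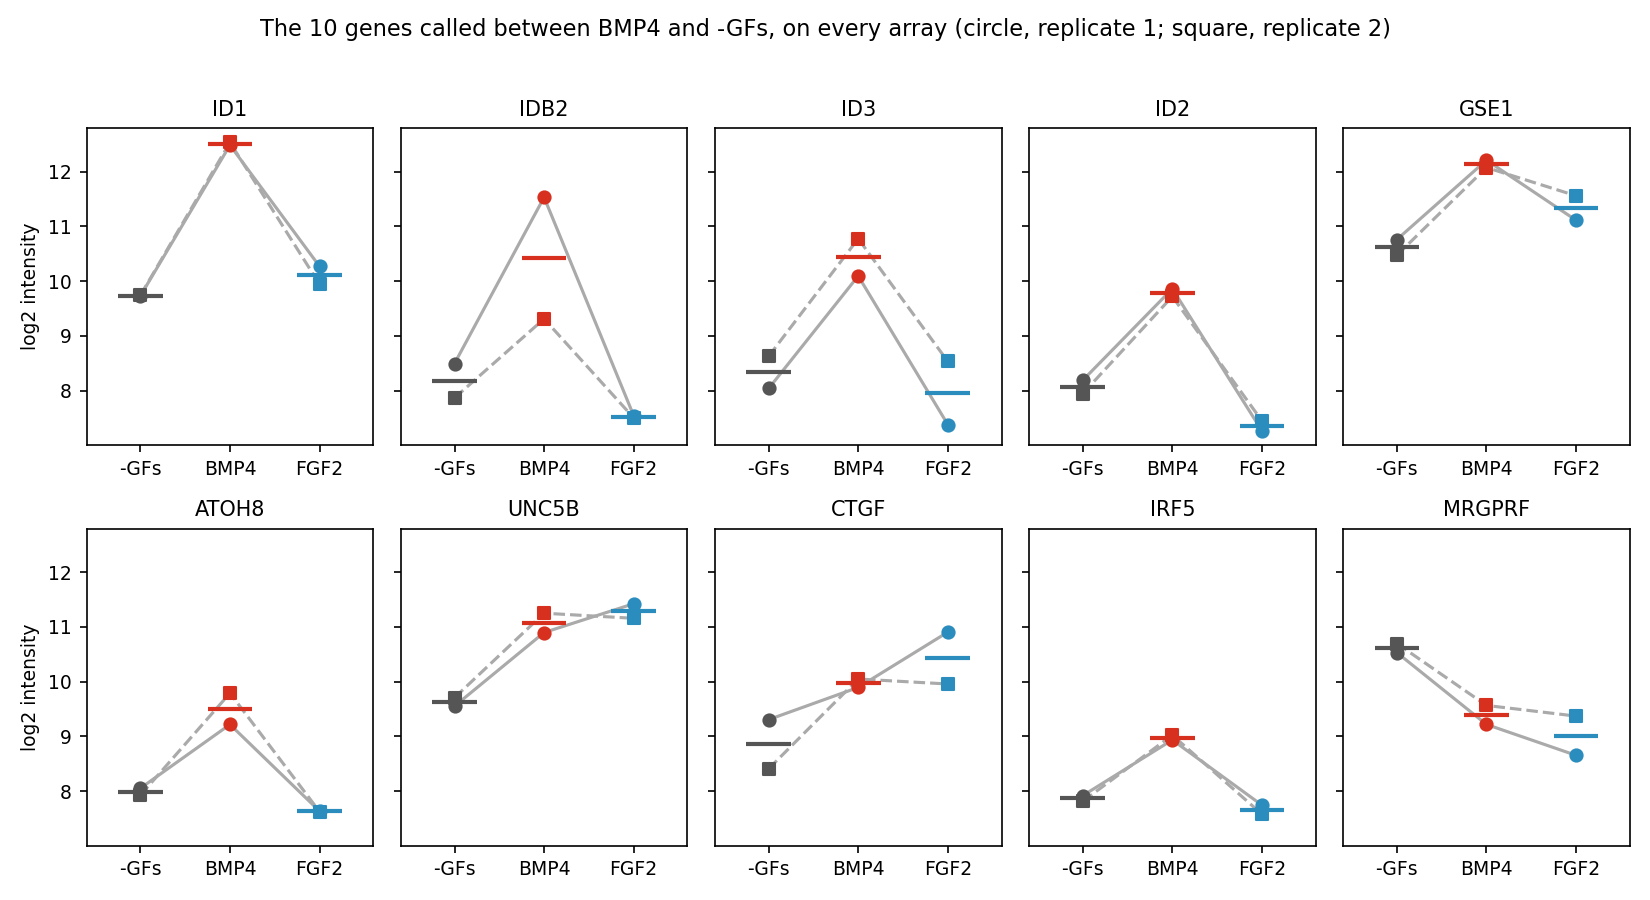
Log2 intensity of the 10 called genes on every array of the study, in -GFs medium (grey), with BMP4 (red) and with FGF2 (blue), with circles and solid lines for replicate 1, squares and dashed lines for replicate 2 and bars for the group means. In each panel both red points lie on the same side of both grey points, above them in 9 panels and below them for MRGPRF.

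The promoters of the ID genes and of IRF5 are shown because these genes rose and because their windows hold letters that SMAD proteins are known to bind, the GC-rich SMAD1/5 element GGCGCC and the SMAD box CAGAC. The sequences are the 250 bases before the annotated start in RefSeq (GRCm38.p6), written along the gene from 5′ to 3′. The capitals mark GGCGCC, which reads the same on both strands, and CAGAC or its reverse complement GTCTG.
Id2 (chr12:25096093-25096342, minus strand): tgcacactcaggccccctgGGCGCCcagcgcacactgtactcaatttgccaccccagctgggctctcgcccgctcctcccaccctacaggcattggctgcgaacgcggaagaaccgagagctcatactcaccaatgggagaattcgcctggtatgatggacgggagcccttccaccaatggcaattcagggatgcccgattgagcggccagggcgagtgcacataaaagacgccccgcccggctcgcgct
Id3 (chr4:136143572-136143821, plus strand): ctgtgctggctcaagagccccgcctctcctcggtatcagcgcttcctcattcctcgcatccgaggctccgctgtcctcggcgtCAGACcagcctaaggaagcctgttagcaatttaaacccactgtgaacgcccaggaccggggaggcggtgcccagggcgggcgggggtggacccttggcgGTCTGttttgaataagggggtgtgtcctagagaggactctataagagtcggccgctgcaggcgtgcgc
Id4 (chr13:48260866-48261115, plus strand): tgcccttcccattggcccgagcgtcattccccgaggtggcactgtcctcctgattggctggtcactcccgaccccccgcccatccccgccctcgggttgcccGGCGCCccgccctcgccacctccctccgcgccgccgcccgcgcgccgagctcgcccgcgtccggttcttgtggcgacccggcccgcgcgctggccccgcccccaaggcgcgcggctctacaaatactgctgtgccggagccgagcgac
Irf5 (chr6:29526375-29526624, plus strand): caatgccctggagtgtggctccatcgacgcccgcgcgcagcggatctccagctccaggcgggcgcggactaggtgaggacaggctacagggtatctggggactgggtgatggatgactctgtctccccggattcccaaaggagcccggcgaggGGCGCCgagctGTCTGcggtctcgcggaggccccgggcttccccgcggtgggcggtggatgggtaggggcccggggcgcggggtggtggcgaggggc

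GGCGCC starts 231 bases before the start of Id2, 148 bases before that of Id4 and 97 bases before that of Irf5. In Id3, CAGAC or its complement starts 167 and 68 bases before the start. The Irf5 window also holds a bipartite SMAD element, GGCGCC and GTCT with 5 bases of any kind between them, whose GTCT is part of the CAGAC complement that starts 86 bases before the start, so that these motifs overlap. Promoter windows of 300 bases (250 before the start and 50 after it) were at hand for 6 of the 9 called genes by current symbol, with ID2 and IDB2 as 1 gene (not Id1, Ccn2 and Mrgprf), in 8 windows. Of these windows, 4 hold GGCGCC, 3 hold CAGAC and 1 holds the bipartite element, on either strand. The counts are of windows and not of genes, and Gse1 holds GGCGCC in more than 1 window. Of the 23 windows of all named genes, 8 hold GGCGCC (34.8%), among them those of Myorg and Slc43a1, which fell. Among all 32851 windows of the annotation the shares were 11.9% for GGCGCC, 49.6% for CAGAC and 0.0731% for the bipartite element. The windows of Atoh8 and Unc5b hold none of these letters, and GTCTAGAC, present in 0.213% of all windows, is in none of the called genes but starts 4 bases before the start of Smad6. A match describes the sequence and is no evidence of binding.

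Transcription and chromatin factors made up the next group. ATOH8, an atonal-type bHLH factor that is known as a target of BMP receptors in endothelium and liver, read 8.05 and 7.93 in -GFs medium and 9.22 and 9.79 with BMP4. Its rise was 1.52 ± 0.16 log2, or 2.86-fold (limma adjusted p = 5.58e-05), with 1.17 in replicate 1 and 1.87 in replicate 2. HEY1, a bHLH repressor downstream of Notch that BMP signals also drive, rose by a smaller amount, 0.84 in replicate 1 and 0.83 in replicate 2. It read 10.10 and 10.09 against 10.93 and 10.92, a difference of 0.83 ± 0.15 log2 or 1.78-fold (limma adjusted p = 0.0215).

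IRF5, an interferon regulatory factor best known from macrophages and B cells, rose from 7.92 and 7.81 to 8.94 and 9.02, by 1.11 ± 0.14 log2 or 2.16-fold (limma adjusted p = 0.000399). The -GFs values were only little above the lowest detected signal of their arrays, 7.56 and 7.62. GSE1, a coiled-coil protein found in histone deacetylase complexes, read 10.76 and 10.47 without BMP4 and 12.21 and 12.08 with it. It rose by 1.53 ± 0.16 log2, or 2.88-fold (limma adjusted p = 5.58e-05), and its 3 other probes were not detected on any of the 4 arrays.

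Of the proteins of the cell surface and the matrix, UNC5B and CTGF were called. UNC5B, a netrin receptor that guides axons and vessel sprouts, read 9.55 and 9.71 in -GFs and 10.90 and 11.25 with BMP4, and it rose by 1.44 ± 0.16 log2 or 2.72-fold (limma adjusted p = 5.58e-05). The other 3 netrin pathway genes tested, UNC5C, NTN4 and NEO1, lay between -0.01 and 0.16 log2 and none passed the test.

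CTGF (Ccn2), a secreted matricellular protein, read 9.31 and 8.41 without BMP4 and 9.90 and 10.05 with it. It rose by 1.11 ± 0.20 log2, or 2.16-fold (limma adjusted p = 0.0237), but by 0.59 in replicate 1 and by 1.64 in replicate 2. The -GFs values lay further apart than the BMP4 values. A further CTGF probe differed by 0.90 log2. Without the -GFs array of replicate 2 the increase was 0.86 log2 (limma adjusted p = 0.381) and without the BMP4 array of replicate 2 it was 0.58 log2 (limma adjusted p = 0.833), and it was called when any other array was left out.

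MRGPRF, an orphan receptor of the Mas-related G protein-coupled family, was called lower. It read 10.53 and 10.70 in -GFs medium and 9.22 and 9.57 with BMP4, and fell by 1.22 ± 0.15 on the log2 scale (limma adjusted p = 0.00038). Both pairs fell, by 1.31 and 1.13.

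The other genes with an adjusted p under 0.1 changed by less than 1 log2. Next to ID4 and HEY1, 8 rises are named here. TIAM1, an exchange factor for the small GTPase RAC1, rose by 0.71 ± 0.14 log2 (9.05 and 8.65 against 9.73 and 9.40, limma adjusted p = 0.0469). KIF26B, a kinesin family protein, rose by 0.82 ± 0.16 log2 (8.32 and 8.12 against 8.87 and 9.21, limma adjusted p = 0.0459). PDZRN3, a ubiquitin ligase with PDZ domains, rose by 0.74 ± 0.15 log2 (11.35 and 10.77 against 12.02 and 11.58, limma adjusted p = 0.0551). In these genes the BMP4 array was the higher one in each pair and the groups did not overlap. ADAM12, a membrane metalloproteinase of mesenchymal cells, rose by 0.68 ± 0.14 log2 (8.20 and 8.75 against 8.84 and 9.46, limma adjusted p = 0.056).

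6330505N24RIK, now Fhdc1 and a formin family protein, rose by 0.85 ± 0.14 log2 (limma adjusted p = 0.0109). E430012K20RIK, a name of Ankrd50, was not well above background on both -GFs arrays and was detected on both BMP4 arrays, at least 1.16-fold higher (limma adjusted p = 0.0479), while the brighter ANKRD50 probe differed by 0.19 log2. E430012K20RIK was included only through the BMP4 arrays, where it was high, so its p-value is no separate support. It was the only one of 147 genes with that detection pattern to pass the test, beside 27 of all 11341 genes. LOC670044 and A730054J21RIK, names with no current gene in the annotation used, rose by 0.87 ± 0.15 and 0.68 ± 0.14 log2. TIAM2, a relative of TIAM1, rose by 0.67 ± 0.14 log2 (limma adjusted p = 0.089) and is named after its value was seen, as the only gene with an adjusted p under 0.1 that the rule for named genes leaves out.

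The smaller falls touched a growth factor and regulators of cytokine signals and protein turnover. PDGFA, a ligand that acts on the PDGF receptors of mesenchymal cells, read 11.40 and 10.88 without BMP4 and 10.69 and 10.32 with it, and fell by 0.64 ± 0.14 on the log2 scale (limma adjusted p = 0.0963). CISH, a SOCS-family inhibitor of cytokine receptors that signal through STAT5, read 9.54 and 9.63 against 8.76 and 8.93 and fell by 0.74 ± 0.15 on the log2 scale (limma adjusted p = 0.0507). USP2, a deubiquitinase, fell by 0.75 ± 0.15 (9.39 and 9.31 against 8.84 and 8.35, limma adjusted p = 0.0495). In these 3 genes both BMP4 arrays were below both -GFs arrays.

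AI464131, now Myorg and a glycosidase family protein, fell by 0.75 ± 0.15 on the log2 scale (limma adjusted p = 0.056). SLC43A1, an amino acid transporter, fell by 0.67 ± 0.14 (limma adjusted p = 0.089), and 9430052C07RIK, a transcript of the locus C430049B03Rik, fell by 0.70 ± 0.15 (limma adjusted p = 0.0841). For SLC43A1 and 9430052C07RIK the groups overlapped, since the replicates lay further apart than the members of a pair. The dimmer SLC43A1 probe differed by -1.03 log2, and a dimmer probe of the C430049B03Rik locus, 2700063P19RIK, by -0.12. Each of the 16 named genes with the smaller change had an adjusted p of 0.1 or more when at least 1 array was left out.

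A separate well of each replicate was given FGF2, and the difference between the factors was tested in the same model. Both comparisons share the -GFs arrays, and the genes were chosen on the BMP4 arrays, so the values are set side by side. Between FGF2 and -GFs, 38.2% of all genes had an adjusted p under 0.1. Of the 26 named genes, 15 were higher with BMP4 than with FGF2 at an adjusted p under 0.1 (18.7% of all genes) and 3 were lower (15.7%). Most of the 26 were chosen as rises on the same BMP4 arrays. These counts, and the p-values between the factors that follow, are therefore no separate support.

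The ID family separated the factors. ID1 differed from -GFs by 2.77 log2 with BMP4 and by 0.37 ± 0.15 with FGF2 (limma adjusted p = 0.0605), and it was 2.40 ± 0.15 log2 higher with BMP4 than with FGF2 (limma adjusted p = 1.52e-09). ID3, detected on 1 of the FGF2 arrays, differed from -GFs by -0.38 ± 0.15 with FGF2 (limma adjusted p = 0.073) and was 2.48 ± 0.15 higher with BMP4. The ID2 and IDB2 probes were not well above background on either FGF2 array, so that BMP4 exceeded FGF2 by at least 4.61-fold and at least 7.13-fold, and -GFs exceeded FGF2 by at least 1.39-fold (limma adjusted p = 0.00129) and at least 1.51-fold (limma adjusted p = 0.106). ID4 was 1.21 ± 0.16 log2 higher with BMP4 than with FGF2.

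ATOH8 and IRF5, the latter detected on 1 of the FGF2 arrays, showed the same order, with -0.36 ± 0.16 and -0.20 ± 0.14 log2 after FGF2 and a difference between the factors of 1.87 ± 0.16 and 1.32 ± 0.14. KIF26B and PDZRN3 stood 0.95 ± 0.16 and 1.29 ± 0.15 log2 higher with BMP4, and PDZRN3 was the one of them that fell with FGF2, by 0.55 ± 0.15 (limma adjusted p = 0.00932). GSE1 rose with FGF2 as well, by 0.72 ± 0.16, and was still 0.81 ± 0.16 higher with BMP4.

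For other genes the difference between the factors missed the threshold of 0.1 on the adjusted p, or passed it narrowly in the case of CTGF. UNC5B rose by 1.44 log2 with BMP4 and by 1.66 ± 0.16 with FGF2, and the factors differed by -0.22 (95% interval -0.54 to 0.11, limma adjusted p = 0.335). For HEY1 the values were 0.83 and 0.88 ± 0.15, with a difference of -0.05 (95% interval -0.36 to 0.26). TIAM1, ADAM12, 6330505N24RIK, E430012K20RIK, USP2 and SLC43A1 also missed the threshold between the factors, with differences from -0.16 to 0.31. CTGF was 0.46 ± 0.20 log2 lower with BMP4 than with FGF2 (limma adjusted p = 0.0997). It did not pass under any of the 4 alternatives run (limma adjusted p from 0.105 to 0.562).

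In the genes that follow, the factors differed in direction or in the size of a shared fall. CISH fell with BMP4 and rose with FGF2, by 1.50 ± 0.15, so that it was lower with BMP4 by 2.24 ± 0.15 log2 (limma adjusted p = 3.96e-09). PDGFA differed from -GFs by 0.29 ± 0.14 log2 with FGF2, which did not pass (limma adjusted p = 0.129). It was lower with BMP4 than with FGF2, a difference of -0.92 ± 0.14 (limma adjusted p = 8.56e-05, 0.11 without the replicate block). AI464131 fell by 2.11 ± 0.15 log2 with FGF2 and was 1.36 ± 0.15 higher with BMP4 than with FGF2. 9430052C07RIK fell by 3.20 ± 0.15 log2 with FGF2 and was 2.50 ± 0.15 higher with BMP4. MRGPRF fell by 1.22 with BMP4 and by 1.60 ± 0.15 with FGF2. The difference between the factors was 0.38 ± 0.15 (limma adjusted p = 0.0742) and did not pass without the replicate block or with neqc.

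**Figure D3:**
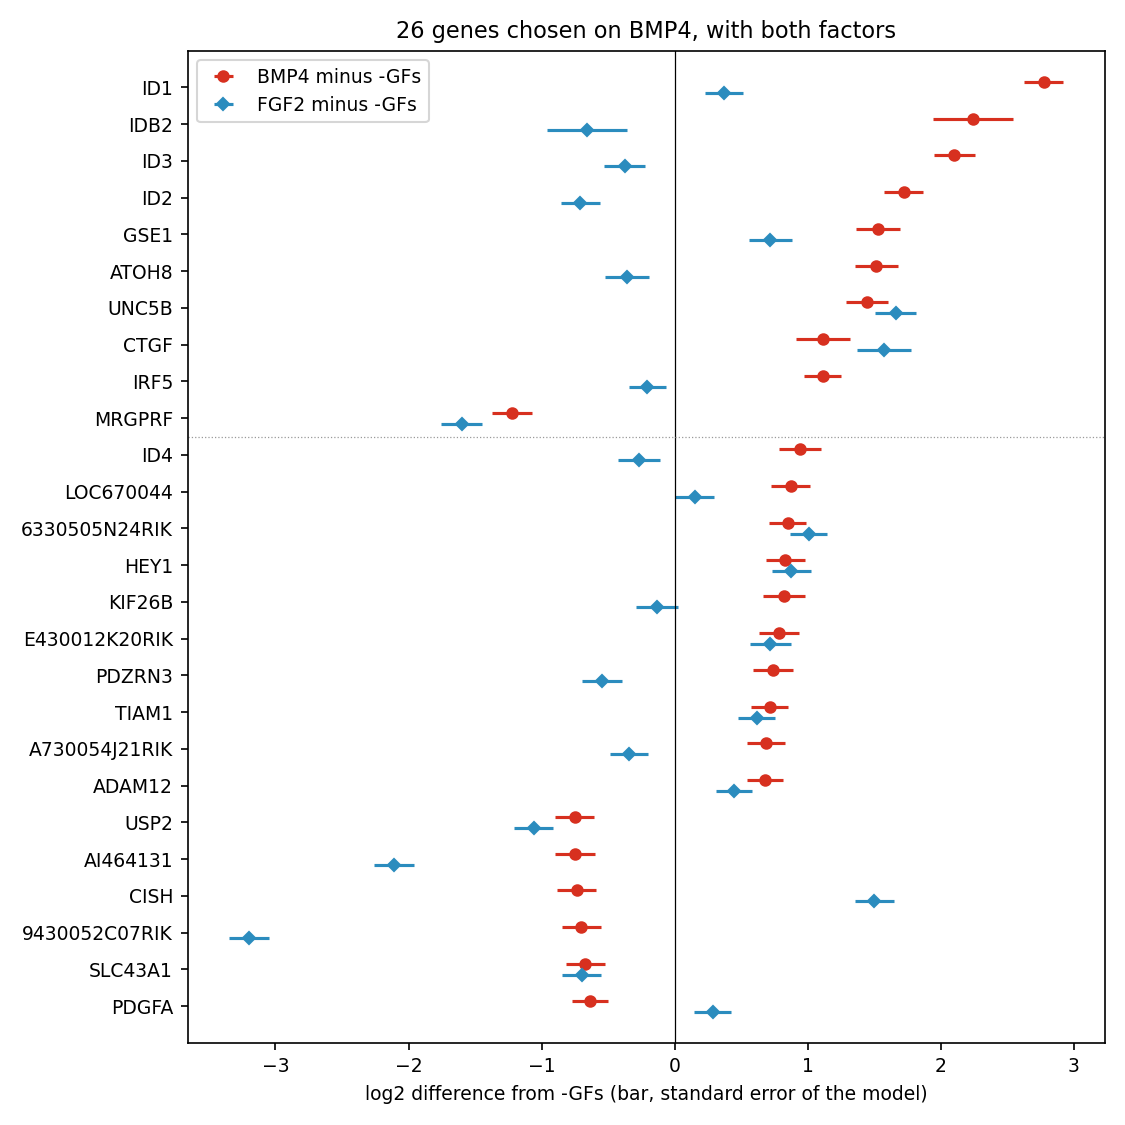
Log2 difference from -GFs with BMP4 (red circles) and with FGF2 (blue diamonds) for the 26 named genes, with bars for the standard error of the model. The called genes stand above the dotted line, and the red and blue points are far apart for the ID genes, ATOH8, IRF5 and CISH and close together for UNC5B, HEY1, TIAM1 and SLC43A1.

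Gene lists of the pathway gave the setting of these changes. The lists were chosen with earlier results of these data known, so their counts and medians are description and no separate support. Of 23 known BMP-SMAD target genes, 10 were tested, of which 4 were called, beside 0.0794% of all genes called higher. At an adjusted p under 0.1, 6 rose (ID1, ID2, ID3, ID4, ATOH8 and HEY1), beside 0.176% of all genes. The median over the 10 was 0.89 log2, beside 0.0024 over all genes. SMAD6, an inhibitory SMAD, read 8.11 and 7.97 against 8.37 and 8.72, a difference of 0.50 ± 0.15 log2 that did not pass (limma adjusted p = 0.302). MSX1, BMPER and GATA2 differed by 0.04, -0.02 and -0.15 log2. The 13 other members did not reach the detection filter, among them Smad7, Bambi, Msx2, Dlx5, Nog and Runx2. With FGF2 the median of the same 10 genes was -0.12 log2.

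None of the receptors, ligands and transducers passed the test in the main fit, though up to 2 SMADs and SMAD regulators did under other settings. The 9 BMP receptors and co-receptors tested lay between -0.25 and 0.41 log2, with BMPR1A, a type I receptor, at 0.09 ± 0.15, ACVR1 at 0.20 ± 0.14 and the BMPR2 probe, listed as 2610024H22RIK, at 0.41 ± 0.16 (limma adjusted p = 0.555). BMP4 itself was the only 1 of 15 BMP ligands to be tested, with 8.49 and 7.62 in -GFs and 8.58 and 7.76 in presence of the factor (0.12 ± 0.14 log2). The 9 antagonists and extracellular modulators, such as chordin, follistatin and twisted gastrulation, ranged from -0.18 to 0.20 log2. Among 16 SMADs and SMAD regulators the values ran from -0.53 ± 0.14 for SMAD3, a transducer of the TGFβ branch (limma adjusted p = 0.22), to SMAD6. SMAD1 and SMAD5, the transducers of the BMP branch, differed by 0.06 ± 0.14 and 0.09 ± 0.14 log2.

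The partners of the ID proteins were little changed on these arrays. Of 10 E proteins and other bHLH factors, ATOH8 and HEY1 rose and the other 8 lay between -0.29 and 0.33 log2. TCF3, the E protein known as E2A, differed by -0.13 ± 0.14 log2, TCF4 by 0.25 ± 0.16 and TCF12 by -0.05 ± 0.15. HEY1 was also the only one of 7 Notch receptors, ligands and targets that passed, with HES1 at -0.06 and HEY2 at 0.33 log2.

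In the main fit CTGF was the only one of 19 TGFβ-SMAD target genes that passed, and the median of the 19 was 0.09 log2. SNAI1 and SNAI2, repressors of the epithelial state, lay higher on both BMP4 arrays than on both -GFs arrays, by 0.57 ± 0.14 (limma adjusted p = 0.159) and 0.59 ± 0.15 log2 (limma adjusted p = 0.187), without passing the test. Of the WNT ligands and receptors that the study names, 4 of 9 were tested and none passed. WNT6 was at the edge of detection, with 7.68 and 7.68 in -GFs and 7.76 and 7.38 with BMP4, the last of them undetected, and differed by -0.11 ± 0.14 log2. LRP5 and LRP6, the WNT co-receptors, differed by 0.41 ± 0.16 (limma adjusted p = 0.515) and 0.43 ± 0.14 log2 (limma adjusted p = 0.407). The LRP6 probe, listed as C030016K15RIK, was dim and detected on 1 of the -GFs arrays.

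Lineage genes of the stroma gave no call at 3 h. None of 9 osteoblast and chondrocyte genes passed in the main fit (median -0.01 log2), with SOX9, the chondrocyte factor, at 0.24 ± 0.14. None of 7 adipocyte genes did (median 0.12 log2), with PPARG at 0.33 ± 0.15 and CEBPB at -0.61 ± 0.15 (limma adjusted p = 0.178). Of 18 ligands through which stroma acts on vessels and blood, PDGFA alone passed. HGF differed by 0.49 ± 0.17, VEGFA by 0.17 ± 0.14 and CXCL12, the chemokine that retains blood stem cells, by 0.10 ± 0.14 log2. Of the 12 ERK feedback and immediate early genes tested none passed in the main fit. Their median was -0.09 log2 with BMP4 and 2.30 log2 with FGF2. JUN differed by -0.56 ± 0.16 (limma adjusted p = 0.259) and JUNB by 0.51 ± 0.15 log2 with BMP4 (limma adjusted p = 0.293).

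**Figure D4:**
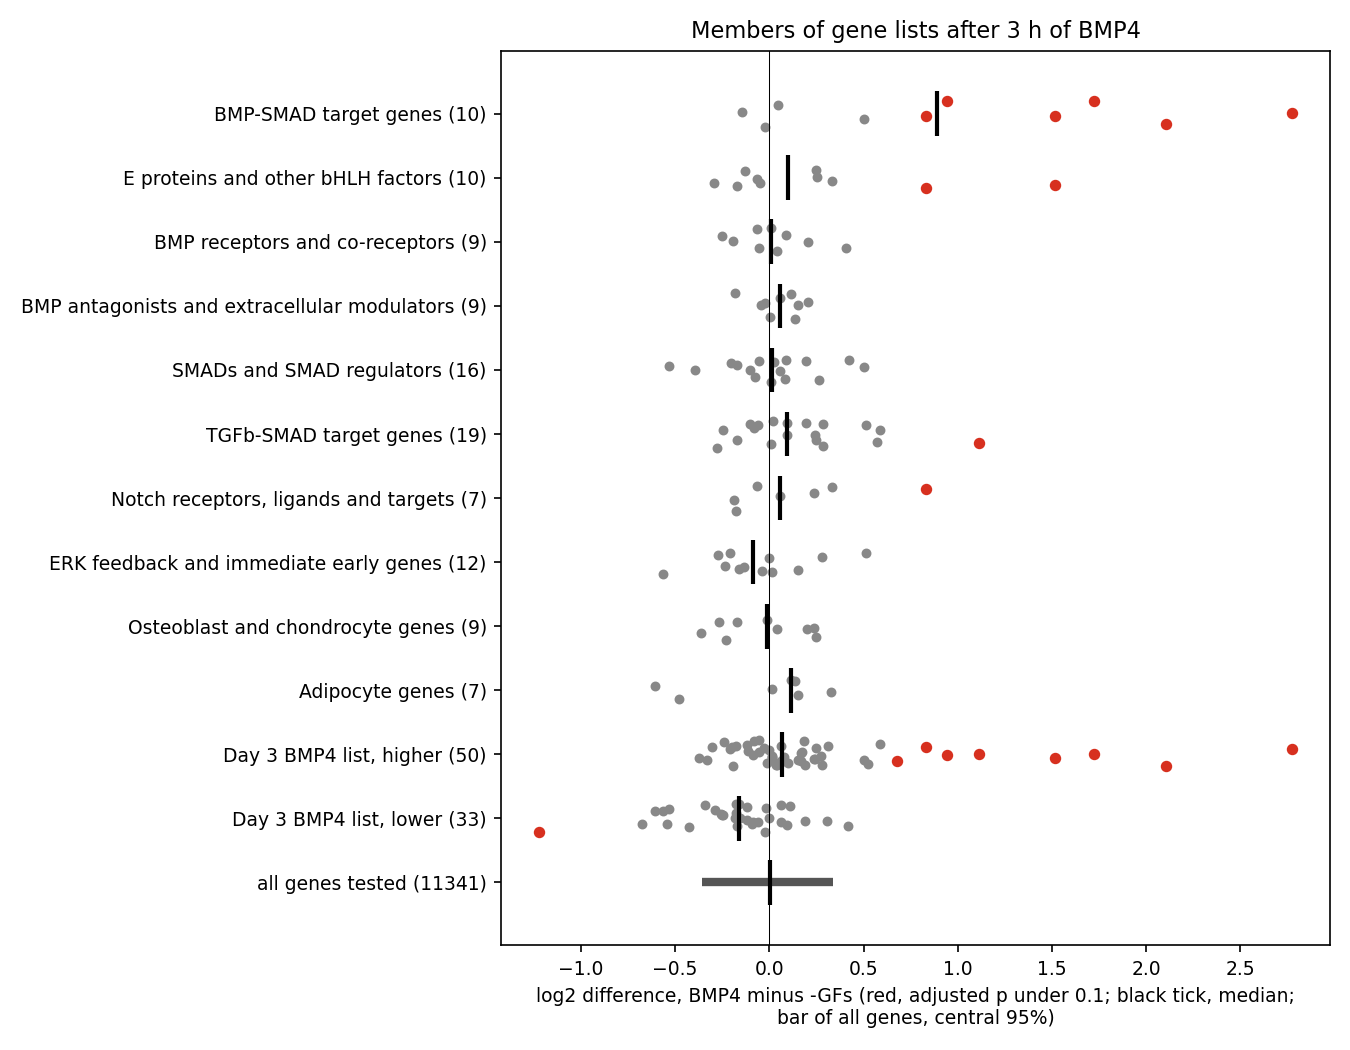
Log2 difference between BMP4 and -GFs for the tested members of 12 gene lists (number of members in parentheses), each point a gene, with red for an adjusted p under 0.1, a black tick for the median and, in the lowest line, the central 95% of all genes. The BMP-SMAD targets have 6 red points and the highest median, 0.89, and the receptors, antagonists and SMADs have none.

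The study also lists genes that it found modulated by BMP4 in pure PA6 cells kept with the factor for 3 days. The arrays behind those lists were not analysed here, and they hold the same cell line at a later time. Of 63 genes listed as higher on day 3, 50 were tested here. At 3 h, 5 of the 50 were called (ID1, ID2, ID3, ATOH8 and IRF5), beside 0.0794% of all genes, and 8 rose at an adjusted p under 0.1, with ID4, HEY1 and ADAM12, beside 0.176%. In total 33 of the 50 were above 0 (66%, against 50.4% of all genes), with a median of 0.07 log2.

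Of the 39 genes listed as lower on day 3, 33 were tested. Of these, 26 were below 0, beside 5623 of all 11341 genes, and the median was -0.16 log2. MRGPRF was the one that passed, beside 0.0617% of all genes that fell at an adjusted p under 0.1. NUPR1, a stress-induced chromatin protein, was the next with -0.67 ± 0.15 log2 (limma adjusted p = 0.12), on arrays that did not overlap between the groups. With median scaling in place of the spline, 33.1% of all genes were above 0. The counts of these lists were then 26 of 50 and 5 of 33 above 0. Of the 33, 4 had an adjusted p under 0.1 in that setting, beside 45 of all 11341 genes in either direction.

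The arrays carried the transcripts of stroma. Of 12 stromal markers 11 were detected, such as COL1A1, VIM, THY1, PDGFRA, VCAM1 and CXCL12, and they differed by -0.36 to 0.19 log2 between BMP4 and -GFs. One of 8 haematopoietic markers was tested (CSF1R, near background), 1 of 8 endothelial markers (TEK), 2 of 6 ES cell markers (POU5F1 and DPPA5, both near background) and 0 of 8 neural markers, and Ptprc, Cdh5, Pecam1, Nanog and Sox2 were not detected on any array. TEK differed by 0.33 ± 0.16 log2 (limma adjusted p = 0.687). The 11 reference genes tested, among them TBP, GAPDH and ACTB, ranged from -0.13 to 0.24 log2. On an array a change of RNA per cell and a change in the number of cells of a type cannot be told apart.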

How the data were processed

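Total RNA of 6 PA6 monolayers (-GFs, FGF2 and BMP4, replicates 1 and 2 by the labels) was labelled and run on Illumina MouseWG-6 v2.0 BeadChips. The authors deposited mean bead intensities without normalization between arrays, with a detection p-value for each of 45281 probes. GenomeStudio 2011.01 is named in the submitters' processing notes. A total of 9 columns without a heading (2045 lines) and 6 leftover lines were not used. The median intensity per array was 153.4 to 168.1, and 15509 to 16459 probes were detected. The number of arrays limits the precision. Replicates are biological by the labels.

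Intensities were normalized by a cubic spline as the methods name it, written anew in R 4.3.3 (452 quantiles per array set to their mean over the 6 arrays), and converted to log2. A gene was represented by its brightest probe that passed detection (15320 probes, 2961 genes with more than 1). limma 3.58.1 (lmFit, eBayes) was fitted on all 6 arrays with group and replicate number, leaving 2 residual degrees of freedom. Adjusted p-values are Benjamini-Hochberg over all 11341 genes. The smallest two-sided p of an exact permutation test on 1 gene is 0.333 here, so the p-values rest on the variance shared across genes. Pairing follows the labels, by which a replicate supplied 1 well per condition, and deviations from the group means correlated at 0.746 between -GFs and BMP4 arrays of a number (0.609 and 0.587 for the other group pairs). An undetected group gives only a bound, "at least N-fold", against the higher of the probe's own value and the lowest detected signal of the array.

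Names are those of the array. Of 30854 names, 21742 match a symbol or synonym in RefSeq (GRCm38.p6). Named genes are all called genes, the 10 largest rises and the 10 largest falls of 1 log2 or less among the genes with an adjusted p under 0.1 (6 such falls exist), members of the lists described and further probes of these. The genes, lists and rules were chosen with earlier results of these data known. The fit was tested on simulated data.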

Additional observations from a re-analysis of the deposited data

How the results depend on the processing

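With 2 arrays per group the calls rest on the replicate block and on the variance that limma shares across genes. Without the replicate block 1 gene was called higher (ID1) and 0 lower, with neqc 2 higher and 0 lower, and with the t-test of the methods 0 and 0 after adjustment, or 7 and 1 at an unadjusted p under 0.05 and the same fold (424 genes at an unadjusted p under 0.05 by that test, against 829 with limma). Without a threshold on the fold the counts were 20 and 7. With every probe on its own 9 were higher and 2 lower, the second being a dimmer probe of SLC43A1. Leaving out each of the 6 arrays in turn gave 8 to 12 genes higher and 1 to 2 lower. The leave-one-out fits assume that the remaining array of a group varies like the others. CTGF lost its call without the -GFs array or the BMP4 array of replicate 2, and the other 9 called genes kept theirs each time. The same 10 genes were called with quantile normalization, median scaling, 4 other detection filters and the mean of the probes. The 4 BMP4 and -GFs arrays alone also gave these 10. The number of genes with an adjusted p under 0.1 was less stable. It was 27 in the main fit, 239 on those 4 arrays, 60 with the trend and robust options and 2 with neqc. limma's trend and robust options dropped IDB2. Grouping probes by RefSeq gene, an alternative chosen after the data were seen, merged ID2 with IDB2 and kept 8 higher and 1 lower. Of the values of the 26 named genes under all alternatives, 0 changed direction. This is no separate support, since all 26 moved the same way in both pairs. Leaving out an FGF2 array does not change the difference between BMP4 and -GFs. Median scaling moved the median of all genes to -0.07 log2. Dim genes differed more with neqc (ID2 by 2.47 and ATOH8 by 2.27 log2). The number of list members with an adjusted p under 0.1 also moved with the setting. It ran from 0 to 2 for the SMADs and SMAD regulators, the adipocyte genes and the ERK feedback genes. For the TGFβ-SMAD targets it ran from 0 to 4. It stayed at 0 for the BMP receptors, the BMP antagonists and the osteoblast and chondrocyte genes.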

Other observations

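Lists of interferon response genes and of mitosis genes gave no call with BMP4. Of 11 interferon response genes tested 10 lay below 0, beside 5623 of all 11341 genes, and the groups overlapped for all 11. Their median was -0.12 log2. With FGF2, 0 of the 11 lay above 0, and their median was -0.52 log2. Of all 11341 genes, 5125 lay above 0 with FGF2, and their median was -0.04 log2. USP18 had the lowest value, -0.55 ± 0.18 log2 (limma adjusted p = 0.399), and read 10.41 and 11.73 in -GFs and 10.31 and 10.72 with BMP4. Of 9 mitosis genes 8 lay below 0 with BMP4, with a median of -0.12 log2. BUB1B, a kinase of the spindle checkpoint, had the lowest value, -0.30 ± 0.14 (limma adjusted p = 0.639). With FGF2, 0 of these 9 lay above 0, and their median was -0.36 log2.

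The study followed a set of genes by PCR in PA6 cells. On these arrays 9 of the 11 genes of the set were tested with BMP4, and CTGF was the one that passed. FGFR2, a receptor of FGF2, read 12.48 and 12.18 in -GFs medium and 12.67 and 12.73 with BMP4, higher on both BMP4 arrays, with a difference of 0.37 ± 0.15 log2 (limma adjusted p = 0.559). TGFB1 lay lower on both BMP4 arrays, by -0.28 ± 0.14 log2 (limma adjusted p = 0.697), and TGFBR1 and TGFBR2 differed by 0.11 ± 0.14 and -0.15 ± 0.14 log2.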
